A study of Rattus norvegicus with 3 samples.

Results

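Genes for 7 proteins that skeletal muscle is known to release were followed across 3 arrays of rat tibialis anterior muscle: osteocrin (Ostn), myostatin (Mstn), follistatin (Fst), Fndc5, Metrnl, Igf1 and Dlk1. They are 7 of 14506 genes with a single-gene probe set. Each had 1 probe set, and all 7 passed the filter on dim genes that left 10879 genes for comparison. The genes were chosen by symbol with their values on these arrays already known, so every value below is a description and none was tested. The animals were male Wistar rats aged 11 weeks at the end, on a diet with 45% of its energy from fat for 3 weeks. After 2 weeks of that diet, 150 µg of plasmid was electroporated into the tibialis anterior of 1 leg, and the muscle was taken 8 days later. The plasmid was pcDNA3.1 without an insert (empty vector), pcDNA3.1 with Plin5 (OXPAT), or pENTR with Plin2 (ADRP), the inserts being driven by the CMV promoter. The Plin2 plasmid therefore differs from the control in backbone as well as insert. Each group was a single array of RNA pooled from 6 rats, so no spread between animals was measured, and precision is limited by there being 3 arrays in all.

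Proteins released by muscle, often called myokines, act on the fibre itself, on neighbouring cells or on distant organs. Osteocrin, also called musclin, resembles the natriuretic peptides and binds their clearance receptor, Npr3. Myostatin is a member of the transforming growth factor family that restrains muscle growth through activin type II receptors and Smad proteins, and follistatin binds and neutralises it. Fndc5 is the membrane precursor of irisin, Metrnl encodes a secreted relative of meteorin, Igf1 promotes growth and repair of fibres, and Dlk1 is an imprinted Delta-like protein made by developing and regenerating muscle.

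Promoter sequences from RefSeq (build GRCr8) were matched for 4 of the 7 genes: Fndc5, Metrnl, Igf1 and Dlk1. Metrnl and Dlk1, both counted as higher on the Plin2 array, are shown. The windows of Fndc5 and Igf1 lie inside the annotated genes and are not printed. The stretches run 5′ to 3′ on the plus strand and end before the annotated start of the gene. The first is chr10:107461898-107462147 and the second chr6:134192347-134192490. Capitals mark matches to the E-box CANNTG on either strand.
Metrnl: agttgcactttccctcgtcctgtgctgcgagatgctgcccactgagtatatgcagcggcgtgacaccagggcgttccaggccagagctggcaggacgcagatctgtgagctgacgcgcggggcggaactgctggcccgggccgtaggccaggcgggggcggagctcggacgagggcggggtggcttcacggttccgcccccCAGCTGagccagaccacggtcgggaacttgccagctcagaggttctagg
Dlk1: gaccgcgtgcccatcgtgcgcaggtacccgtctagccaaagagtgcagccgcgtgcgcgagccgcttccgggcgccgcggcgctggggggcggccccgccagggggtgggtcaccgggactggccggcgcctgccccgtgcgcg
The Metrnl stretch held 1 E-box. The full 250-base window of Dlk1, whose last 106 bases lie inside the annotated gene and are not shown, held none, and 65.5% of all 33469 promoter windows of that length held at least 1. The forkhead site TGTTTAC (in 3.21% of windows), TATAAA (12.9%) and the MEF2 core TATTTATA (1.63%) were searched on both strands as well and were in neither window. The windows were 67.6% (Metrnl) and 78.0% (Dlk1) G or C, against a median of 51.2% over all windows. A match or its absence describes these letters only.

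Levels are log2 values after robust multi-array averaging, and differences are log2 units between a pair of arrays. A gene was counted when it differed by at least 1.5-fold (0.58 log2 units). On the Plin2 array, 3 of the 7 genes were higher than on the empty vector array by that amount (Metrnl, Fst and Dlk1) and 2 lower (Ostn and Mstn). Of all 10879 genes, 8.84% were higher and 5.8% lower by as much. On the Plin5 array 2 were higher (Dlk1 and Ostn) and 0 lower, where 0.221% of all genes were higher and 1.42% lower. The median over the 7 genes was 0.28 for Plin2 and 0.00 for Plin5, and over all genes it was 0.00 in both. Both comparisons share the empty vector array, and the genes were picked with these differences in view, so nothing is read from these shares. The shares over all genes also stand beside the counts of each gene list below, where a count of 0 for Plin5 is close to them. For Plin2, the gene nearest the threshold inside it was Dlk1 (0.69) and the nearest outside was Fndc5 (−0.56). For Plin5 these were Ostn (0.69) and Metrnl (−0.28).

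**Figure D1:**
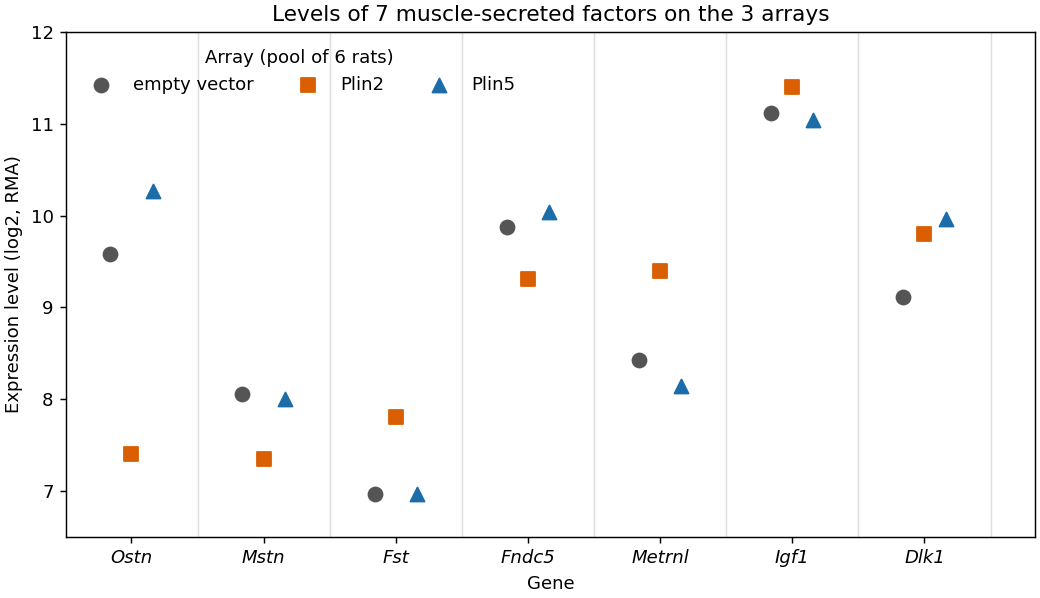
Expression level (log2, vertical axis) of the 7 genes (horizontal axis) on the empty vector, Plin2 and Plin5 arrays, 1 point per array of pooled RNA, so there are no error bars. The Plin2 point is the lowest for Ostn, Mstn and Fndc5 and the highest for Fst, Metrnl and Igf1, and Dlk1 is lowest on the empty vector array; heights of different genes come from different probes and are not comparable.

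The Ostn level (probe set 10755008) was 9.58 on the empty vector array, 7.40 on the Plin2 array and 10.27 on the Plin5 array. The Plin2 array was thus the low one, with the Plin5 array above the control. The difference of Plin2 from the empty vector was −2.18, a level 4.52-fold lower, which was rank 2 from the lowest among 10879 genes. The difference of Plin5 from the empty vector was 0.69 (1.61-fold), rank 21 of the 24 genes counted as higher. Between the Plin5 and Plin2 arrays the Ostn difference was 2.86 (7.27-fold), the highest of all genes compared. That last value is the Plin5 difference minus the Plin2 difference and adds no measurement. In RNA from whole muscle, fewer cells of a type and less RNA per cell cannot be told apart.

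The receptor of osteocrin was also lower on the Plin2 array. Npr3, the clearance receptor that removes natriuretic peptides, stood at 8.16 on the empty vector array, 6.73 on the Plin2 array and 7.88 on the Plin5 array. Its difference was −1.42 (2.68-fold lower) for Plin2 and −0.27 for Plin5, so unlike Ostn it was not above the control on the Plin5 array. The other natriuretic gene past the threshold was Prkg1, a protein kinase activated by cyclic GMP, at 7.81, 7.04 and 8.06 on the empty vector, Plin2 and Plin5 arrays (−0.77 for Plin2 and 0.25 for Plin5). Of the 10 natriuretic genes past the dim filter, 0 were higher and 2 lower for Plin2, and 0 passed the threshold for Plin5. The list median was 0.00 in both comparisons, set by genes exactly equal to the control (5 for Plin2 and 6 for Plin5). The median over all genes was 0.00 as well. The signalling receptor Npr1 (7.35) and the ligand gene Nppc (7.58) read the same on every array, and the signalling receptor Npr2 was at −0.13 for Plin2.

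Likeness to Ostn was measured as the Euclidean distance between genes in the plane of the Plin2 and Plin5 differences, over 3 arrays. The nearest genes were Lgi3 (distance 0.34), Perm1 (0.35) and Myh7 (0.49), and these were all the genes within 0.5 log2 units. Lgi3, a secreted leucine-rich repeat protein, differed by −2.28 for Plin2 and 0.37 for Plin5. Perm1, a muscle regulator of oxidative genes, was at −1.97 and 0.41. Myh7, the slow myosin heavy chain, was at −1.75 and 0.44. Ostn lay apart from the bulk of genes in this plane.

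**Figure D2:**
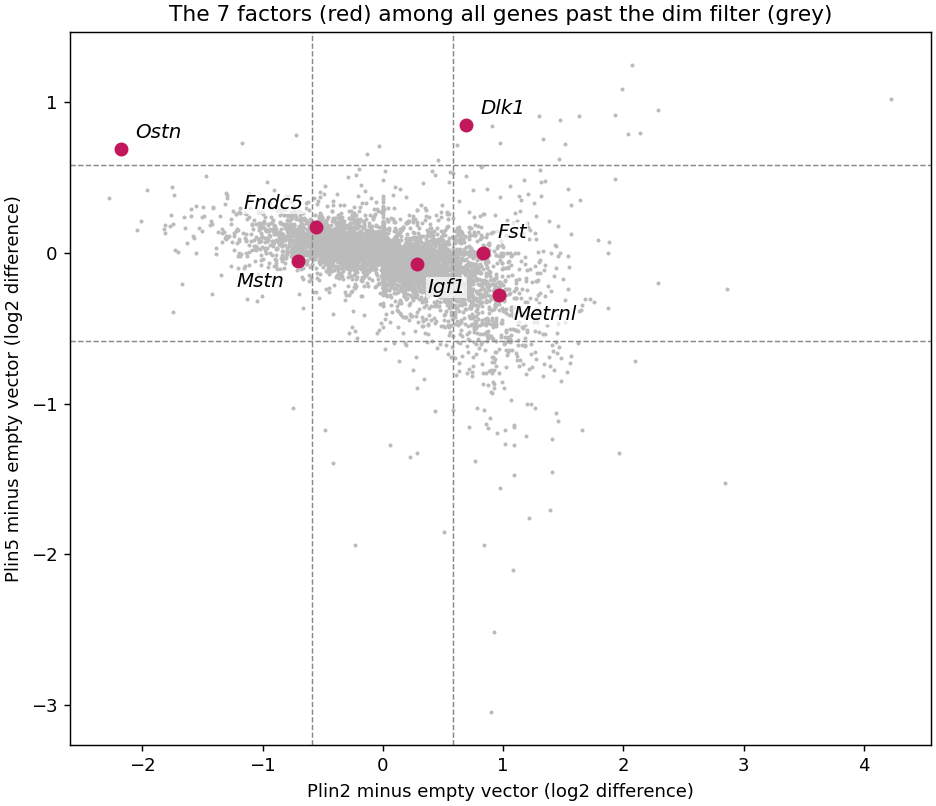
Each grey point is 1 of 10879 genes, placed by its log2 difference of Plin2 (horizontal) and Plin5 (vertical) from the same empty vector array, with the 7 genes in red and dashed lines at 1.5-fold. Ostn sits at −2.18 and 0.69 and Dlk1 at 0.69 and 0.85, away from most genes, while Igf1, Fndc5, Mstn, Fst and Metrnl lie among them.

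The Mstn level (probe set 10927805) was 8.05 on the empty vector array, 7.35 on the Plin2 array and 8.00 on the Plin5 array. Only the Plin2 array stood below the control by more than the threshold, by −0.70 (1.63-fold lower), against −0.06 for Plin5. Among the 631 genes counted as lower for Plin2 its rank was 419. The nearest genes to it were Smad6, an inhibitory Smad (distance 0.02), Nmnat3, an enzyme of NAD synthesis (0.03), and Sfxn5 (0.03). As 68 genes lay within 0.1 log2 units of Mstn, its pattern was a common one.

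The Fst level (probe set 10821408) was 6.97 on the empty vector array, 7.80 on the Plin2 array and 6.97 on the Plin5 array. Follistatin was thus high on the Plin2 array, where its target myostatin was low. The difference for Plin2 was 0.83 (1.78-fold), rank 485 of 962 genes counted as higher. The empty vector and Plin5 values were exactly equal, which was so for 40.2% of all genes compared. Median polish, by which RMA combines probes, can return such ties, so a difference of 0.00 is not a precise measurement. The nearest genes were Ppp1r18 (distance 0.001), Chst11 (0.014) and B4galnt1 (0.017), and 49 genes lay within 0.1 log2 units.

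Few other genes of the myostatin and activin pathway passed the threshold. Of 22 genes past the dim filter, 2 passed 1.5-fold upward and 0 downward for Plin2, and 0 passed for Plin5, with medians of 0.00 and −0.01. Tgfb1, a ligand of the same family with roles in fibrosis and immunity, stood at 9.55, 10.31 and 9.10 on the empty vector, Plin2 and Plin5 arrays (0.76 for Plin2 and −0.45 for Plin5). Bmp1, a protease that releases active myostatin from its propeptide, was at 0.59 for Plin2 and −0.10 for Plin5. Of the receptors and Smads in this list, none reached the threshold against the empty vector. Smad6, named above as near to Mstn, is not in the list and did pass, at −0.73 for Plin2 and −0.05 for Plin5. Within the list the receptor gene Tgfbr1 came closest, at 0.56 for Plin2 (1.48-fold) and −0.23 for Plin5. Between Plin5 and Plin2 it was at −0.80 (1.74-fold lower), and it was 1 of 3 genes of the list past the threshold there, with Tgfb1 and Bmp1. The main myostatin receptor gene Acvr2b was at −0.33 for Plin2 and −0.18 for Plin5, Acvr2a at −0.03 and 0.05, and Smad3 at −0.02 and 0.00. Gdf11, the closest relative of myostatin, was at −0.10 and −0.03. The antagonists Fstl3 (6.93) and Wfikkn1 (6.85) were exactly equal on all 3 arrays.

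The Fndc5 level (probe set 10872283) was 9.87 on the empty vector array, 9.32 on the Plin2 array and 10.05 on the Plin5 array. The order of the arrays was that of Ostn, over a narrower range. As 146 genes lay within 0.1 log2 units of Fndc5, its pattern was a common one. The difference was −0.56 for Plin2 (1.47-fold lower, just short of the threshold) and 0.17 for Plin5. With the arrays brought to a common median the Plin2 difference was −0.61, past the threshold. Between Plin5 and Plin2 it was 0.73 (1.66-fold). In that comparison 7.19% of all genes passed the threshold upward and 11.3% downward. These are 782 and 1225 genes, and with a common median they became 1012 and 1032. Of the 7 genes, Ostn, Mstn and Fndc5 passed upward there and Fst and Metrnl downward.

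The upstream regulators of Fndc5 had the same order of arrays, as many other genes did. Their part in the Fndc5 difference was not tested. Ppargc1a, a coactivator that induces Fndc5 and mitochondrial genes, stood at 10.15, 9.39 and 10.42 on the empty vector, Plin2 and Plin5 arrays (−0.76 for Plin2 and 0.27 for Plin5). Its partner, the nuclear receptor Esrra, stood at 8.34, 7.74 and 8.54 (−0.60 and 0.20). These were the 2 genes counted as lower for Plin2 among 5 irisin and meteorin partners, and 0 were higher. For Plin5, 0 of the 5 passed, and the list median was 0.00 in both comparisons, set by the tied genes Metrn and Kit. With the dim filter at the median of all genes it was −0.60 for Plin2 and 0.20 for Plin5. Itgb5, part of a reported irisin receptor, was at 0.28 for Plin2 and −0.12 for Plin5.

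The Metrnl level (probe set 10931247) was 8.42 on the empty vector array, 9.39 on the Plin2 array and 8.14 on the Plin5 array. The Plin2 array was high and the Plin5 array somewhat below the control. The difference was 0.97 for Plin2 (1.96-fold), rank 303 of 962, and −0.28 for Plin5. Meteorin itself (Metrn, 6.15) and Kit (6.60), a reported Metrnl receptor, were exactly equal on all 3 arrays. The nearest genes were Hcls1, a cytoskeletal adaptor of blood cells (distance 0.02), the class II antigen-loading gene RT1-DMa (0.02) and the tetraspanin Cd82 (0.02), and 56 genes lay within 0.1 log2 units.

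Metrnl is made by macrophages as well as by fibres, and most macrophage markers differed in the same directions. For Plin2, 12 of 13 of these passed the threshold upward (median 1.12) and 0 downward. For Plin5, 0 passed upward and 5 downward (median −0.47), with 11 of 13 below 0 and Cd14 (0.21) and Cd163 (0.04) above it. Their summed linear signal was 10694 on the empty vector array, 23715 on the Plin2 array and 7678 on the Plin5 array, and no marker was under the dim level of 5.34 (the lowest value was Trem2 at 6.48). Trem2 was at 1.96 for Plin2 and −1.33 for Plin5, and Gpnmb at 1.44 and −0.59. These signs were not particular to macrophage markers. Medians for Plin2 and Plin5 were 0.85 and −0.35 for satellite cell and regenerating fibre markers, and 0.12 and −0.06 for fibroblast markers. The part of any of these cell types in the Metrnl difference was not tested.

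The Igf1 level (probe set 10894695) was 11.12 on the empty vector array, 11.40 on the Plin2 array and 11.05 on the Plin5 array. The 3 values lay close together, and no pair differed by 1.5-fold: 0.28 for Plin2, −0.08 for Plin5, and −0.36 between Plin5 and Plin2. In the insulin-like growth factor axis the genes past the threshold were a binding protein, receptors and an adaptor rather than the ligands. Igfbp4, which sequesters the ligands, stood at 8.53, 9.51 and 8.61 on the empty vector, Plin2 and Plin5 arrays (0.98 for Plin2 and 0.08 for Plin5). The growth hormone receptor Ghr, which drives Igf1 transcription, stood at 10.74, 9.92 and 10.84 (−0.82 and 0.10). The adaptor Irs1 was at −0.74 for Plin2 and −0.01 for Plin5, and the insulin receptor Insr at −0.66 and 0.19. The receptor gene Igf1r was at 0.13 and −0.01, and the second ligand Igf2 at 0.13 and 0.00. In all, 1 of 14 genes was higher and 3 lower for Plin2 and 0 passed for Plin5, with medians of 0.02 and 0.00.

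**Figure D3:**
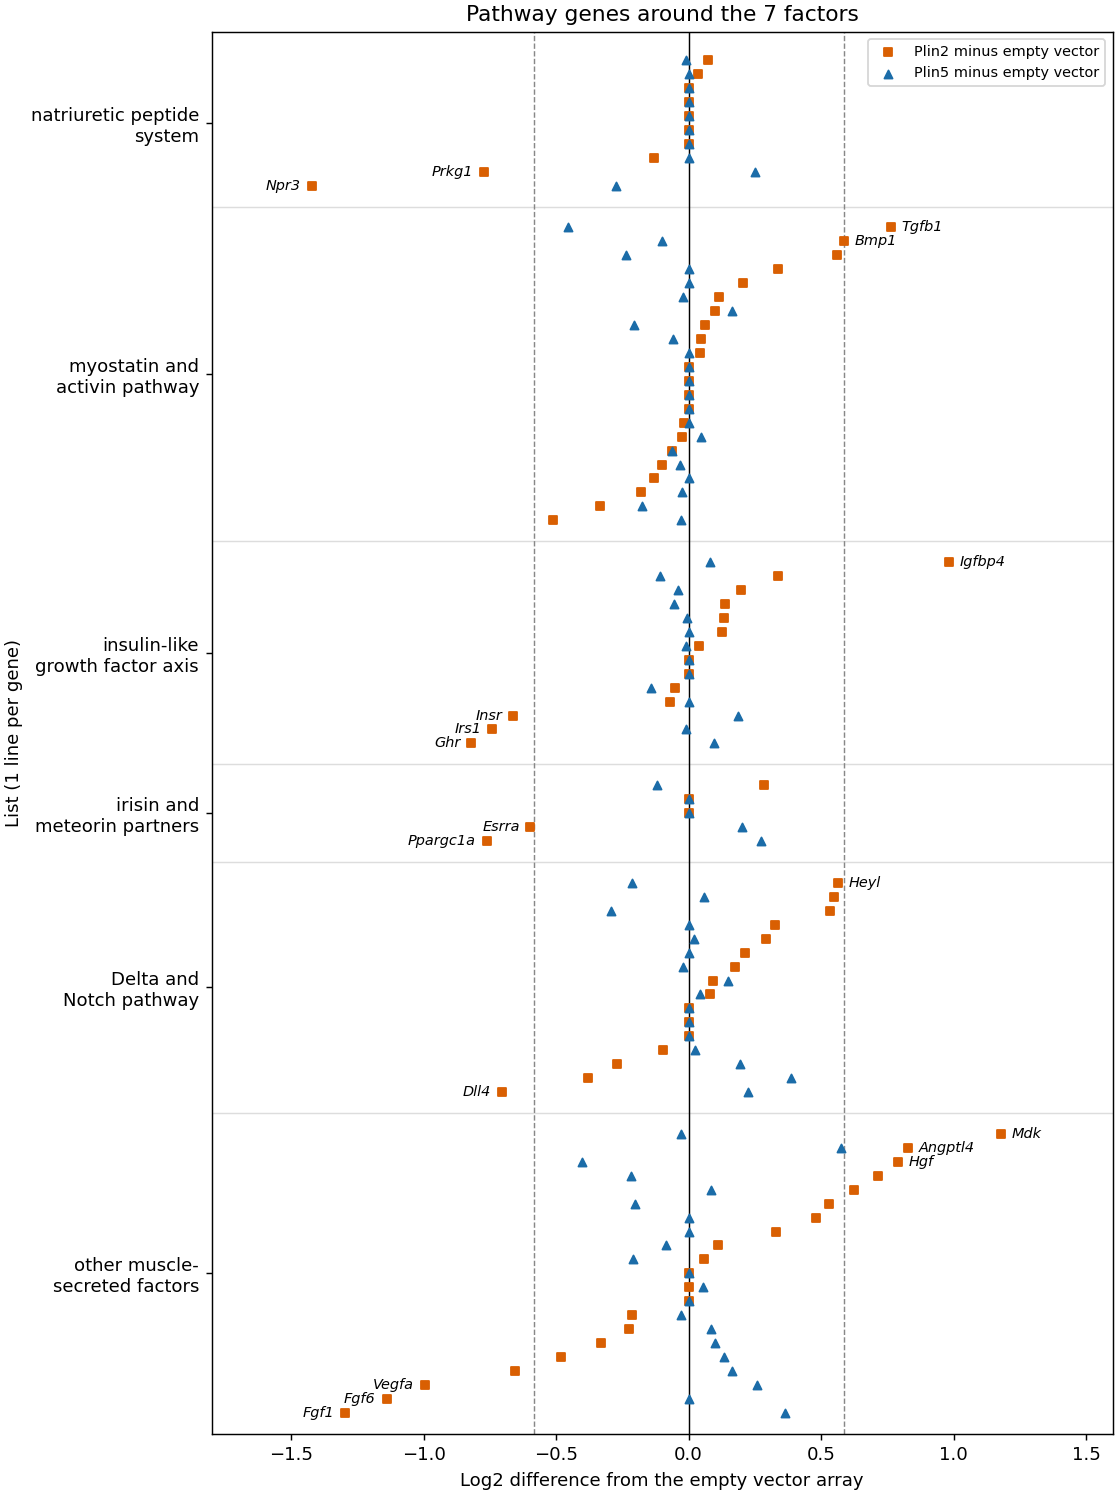
Log2 difference of Plin2 (squares) and Plin5 (triangles) from the empty vector array (horizontal axis) for the genes of 6 lists past the dim filter, 1 line per gene, with dashed lines at 1.5-fold. Squares past the lines include Npr3 (−1.42), Fgf1 (−1.30), Igfbp4 (0.98) and Mdk (1.18), and no triangle passes them.

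The Dlk1 level (probe set 10886806) was 9.11 on the empty vector array, 9.80 on the Plin2 array and 9.96 on the Plin5 array. Of the 7 genes it was the one with both perilipin arrays above the control by more than the threshold, by 0.69 (1.61-fold) for Plin2 and 0.85 (1.80-fold) for Plin5. Its rank among genes counted as higher was 742 of 962 for Plin2 and 10 of 24 for Plin5. The Plin2 and Plin5 arrays differed by only 0.16. As both differences subtract the same empty vector value, a low reading on that array alone would raise both. No gene lay within 0.1 log2 units of Dlk1, and 15 lay within 0.5. The nearest were Nos2, the inducible nitric oxide synthase (distance 0.15; 0.61 for Plin2 and 0.72 for Plin5), the chemokine gene Cxcl9 (0.22; 0.91 and 0.84) and Acod1, the itaconate-forming enzyme of activated macrophages (0.28; 0.94 and 0.97).

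Dlk1 is also made by regenerating fibres, and markers of satellite cells and regenerating fibres were high on the Plin2 array but not on the Plin5 array. Of 8 measured markers, 6 passed 1.5-fold upward and 0 downward for Plin2 (median 0.85), and 0 higher and 2 lower for Plin5 (median −0.35). Their summed linear signal was 7056 on the empty vector array, 12762 on the Plin2 array and 5445 on the Plin5 array, and no marker was under the dim level. The fusion factor Mymk was at 1.41 for Plin2 and −1.24 for Plin5, Myf5 at 1.11 and −0.23, and Myog at 0.99 and −0.47. On the Plin5 array, where Dlk1 was highest, all 8 markers were below the control, Cdh15 (−0.01) and Myh3 (−0.03) only slightly. Their part in the Dlk1 difference was not tested.

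Among 16 Delta and Notch genes, 0 passed the threshold upward and 1 downward for Plin2, and 0 passed for Plin5, with medians of 0.09 and 0.01. The gene past the threshold was Dll4, a Notch ligand of endothelial cells, at 8.51, 7.80 and 8.73 on the empty vector, Plin2 and Plin5 arrays (−0.70 for Plin2 and 0.22 for Plin5). The Notch target Heyl was at 0.56 and −0.21. Meg3, a maternally expressed noncoding RNA of the imprinted Dlk1 region, named after its values were seen, stood at 8.87, 8.49 and 9.26. Its difference was −0.38 for Plin2 and 0.39 for Plin5, so it was opposite in sign to Dlk1 on the first array and the same on the second.

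Other genes for muscle-secreted factors went both ways on the Plin2 array. Of 21 past the dim filter, 5 passed 1.5-fold upward and 4 downward for Plin2, and 0 passed for Plin5, with medians of 0.00. Of all genes, 8.84% passed upward and 5.8% downward for Plin2, and 0.221% and 1.42% for Plin5. With 21 genes, nothing is read from the 0 for Plin5. The heparin-binding growth factor Mdk stood at 7.54, 8.71 and 7.51 on the empty vector, Plin2 and Plin5 arrays (1.18 for Plin2, 2.26-fold). Hgf, an activator of satellite cells, was at 0.79 for Plin2 and −0.40 for Plin5. Fgf1 stood at 8.32, 7.02 and 8.69, a difference of −1.30 for Plin2 (2.46-fold lower) and 0.36 for Plin5. Fgf6, a growth factor largely restricted to muscle, was at −1.14 and 0.00. Vegfa, the main growth factor for capillaries, stood at 10.58, 9.58 and 10.83 (−0.997 and 0.26). Angptl4, an inhibitor of lipoprotein lipase, was above the control on both arrays, at 0.83 for Plin2 and 0.58 for Plin5, the latter just short of the threshold.

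The tissue label was checked against its markers: all 12 measured myofibre markers were bright on all 3 arrays, none below 11.68. Their median difference was −0.18 for Plin2, with 12 of 12 below 0 and 1 lower by at least 1.5-fold (Myh2, −0.98), and 0.02 for Plin5. The ratio of their summed linear signal to the empty vector was 0.864 for Plin2 and 1.02 for Plin5, and the part of fibre markers in the lower Ostn, Mstn and Fndc5 levels on the Plin2 array was not tested. The fibre marker median for Plin2 was −0.038 after a loess correction for level and −0.10 after quantile normalization was repeated. Fibroblast markers had medians of 0.12 and −0.06, with 0 of 8 past the threshold (Lum 0.43 and Pdgfra 0.25 for Plin2), and endothelial markers 0.00 and 0.07, with 0 of 5 (Tek 0.23 and Kdr −0.21 for Plin2). Tendon markers were lower on the Plin5 array (median −1.10; 4 of 6 past the threshold, including Chad at −1.94, Tnmd at −1.39 and Fmod at −1.17) and had a median of −0.32 for Plin2. Each introduced gene was above the empty vector on its own array, Plin2 by 0.71 and Plin5 by 0.78. Of all genes, 8.84% were higher by at least 1.5-fold on the Plin2 array and 0.221% on the Plin5 array. A Plin2 difference of that size was thus a common one on its array. Whether the plasmid was the source of either difference was not tested.

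**Figure D4:**
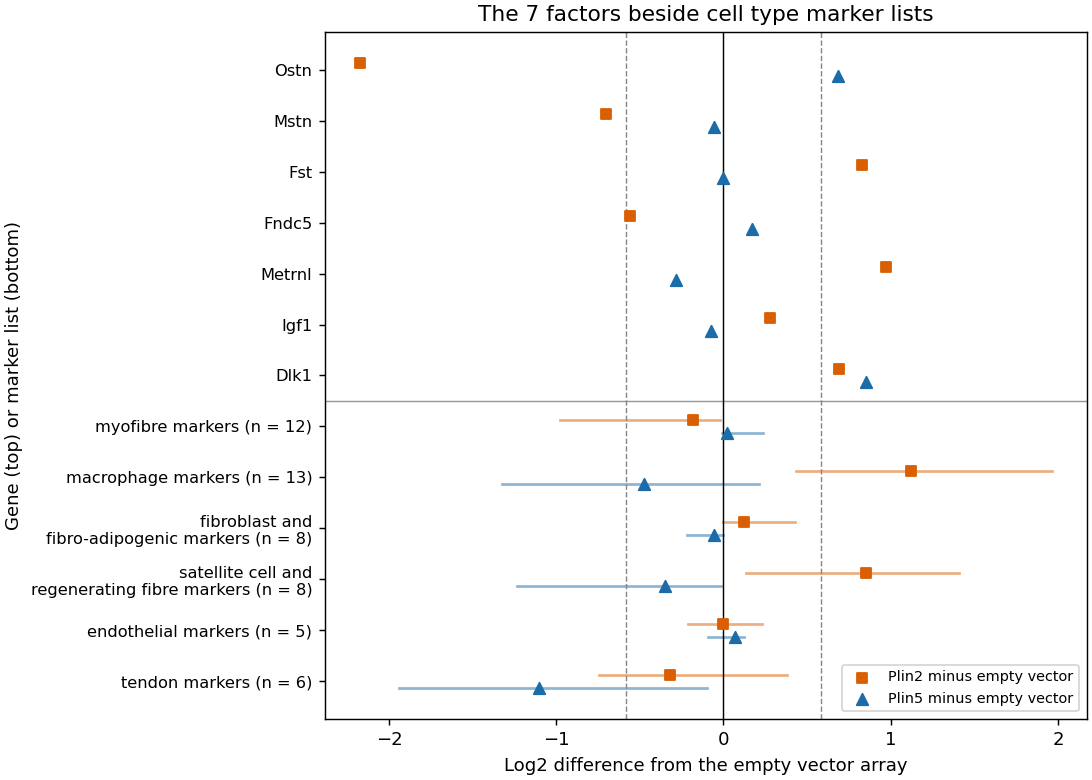
Log2 difference from the empty vector array (horizontal axis) of the 7 genes (top) and the median of each marker list (bottom), squares for Plin2 and triangles for Plin5, with bars from the lowest to the highest marker and dashed lines at 1.5-fold. Macrophage markers (1.12 and −0.47) and regenerating fibre markers (0.85 and −0.35) have opposite signs on the 2 arrays, as Metrnl does, while both Dlk1 values are above 0.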

How the data were processed

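The authors deposited log2 expression values, normalized by robust multi-array averaging (RMA) per the submitters' processing notes, which give no version. The log base was taken from the range of values. RNA with an integrity number above 8 was pooled from 6 rats per group, and 100 ng was labelled, per the labels' protocols. The sham-treated opposite leg was not analysed here.

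The table has 29214 probe sets, of which 15310 name 1 gene in the platform annotation, 323 name several and 13581 are unlisted. The brightest probe set stood for each of 14506 genes. Genes with a mean under the 25th percentile (5.34) were left out, and 10879 remained. Differences between arrays were counted at 1.5-fold, without tests, since each group was 1 array. The scripts were tested on simulated data.

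The 7 genes, the gene lists and the naming rule were chosen with earlier results of these data known. The rule named up to 6 genes past 1.5-fold per pathway list, up to 3 per cell type list (at least 2 in either), and the 3 genes nearest to each of the 7 that passed 1.5-fold. Other pathway genes are given by role. Alternatives changed the filter, centring, normalization, level correction, probe sets and threshold. The work used Python 3.11.15 with pandas 2.3.3, numpy 2.4.6, statsmodels 0.14.6 and matplotlib 3.10.9.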

Additional observations from a re-analysis of the deposited data

How the results depend on the processing

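Alternatives were centring of each array on its median gene, repeated quantile normalization and a loess correction for level. Under each, the differences of Ostn, Mstn, Fst, Metrnl and Dlk1 that passed 1.5-fold kept their sign and stayed past it. Averaging of probe sets could not change these differences, as each of the 7 genes has 1 probe set. Between Plin5 and Plin2, quantile normalization moved Mstn from 0.65 to 0.77 and Fst from −0.83 to −0.71, each by over 0.1. Fndc5 for Plin2 passed after centring (−0.61) and after quantile normalization (−0.59). At 2-fold, 0 of the 7 genes were higher and 1 lower for Plin2, 0 higher and 0 lower for Plin5. Between Plin5 and Plin2, 1 was higher and 1 lower. At 1.2-fold, 4 were higher and 3 lower for Plin2, and 2 higher and 1 lower for Plin5. Between Plin5 and Plin2 these were 3 and 3. The share of all genes was not counted at these thresholds, so nothing is read from these counts. List medians that moved by over 0.1 were those of the irisin and meteorin partners with the dim filter at the median (−0.60 for Plin2, 0.20 for Plin5 and 0.80 between Plin5 and Plin2), and of the myofibre markers after loess (−0.038 for Plin2, 0.028 between Plin5 and Plin2). Between Plin5 and Plin2 so did the natriuretic (0.11) and Notch (0.086) lists after quantile normalization, the myostatin (−0.12) and tendon (−0.49) lists with the filter at the median, and the other secreted factors with no filter (−0.19). The cause was not tested. No paired analysis was possible because each group was 1 array.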

Other observations

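In the RefSeq gene order, the nearest measured genes to Dlk1 are Begain and Wdr25 on one side (4 and 5 places away) and Meg3 on the other (2 places away), with unmeasured genes between. These genes were looked up after the Dlk1 values had been seen. Begain (6.07) and Wdr25 (7.69) were exactly equal on all 3 arrays. Wars1, a tryptophan tRNA synthetase gene induced by interferon that lies a little further out, was at 0.37 for Plin2 and 0.05 for Plin5, and the transcription factor gene Yy1 at 0.09 and 0.00. The measured genes within 12 places of Dlk1 on that side were Yy1, Slc25a29, Slc25a47, Wars1, Wdr25 and Begain. None differed by 1.5-fold on either array. Of all genes compared, 8.84% were higher and 5.8% lower by that much for Plin2, and 0.221% and 1.42% for Plin5. With so few neighbours, nothing is read from this.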
